A study of Mus musculus with 4 samples.

Results

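The epidermal differentiation complex is a cluster of neighbouring genes on mouse chromosome 3 that keratinocytes switch on as they leave the basal layer and turn into the cornified cells of the skin surface. Most of its genes encode precursors of the cornified envelope, a protein shell that transglutaminases crosslink beneath the plasma membrane. The late cornified envelope (Lce) and small proline-rich (Sprr) proteins, loricrin and involucrin are such precursors. The fused S100 proteins join an S100 domain to a long repeat region and bind keratin filaments, and the S100 proteins are small calcium-binding proteins used by many cell types.

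Members were the genes whose symbol begins with Lce, Sprr or S100a and a digit, together with Flg, Flg2, Hrnr, Rptn, Crnn, Tchh, Tchhl1, Lor, Ivl, Crct1 and Smcp. Of 19938 genes with an array probe set of their own, 56 were members: 19 Lce genes, 13 Sprr genes, 14 S100 genes, 6 fused S100 genes and 4 single-gene precursors (Lor, Ivl, Crct1, Smcp). Sprr2a1, Sprr2a2, Sprr2a3 and Lce3d were measured only in probe sets shared with near-identical genes. Flg, Lce1m and S100a7l2 were not analysed here. Among the 13 Sprr genes, Sprr2g and Sprr2j-ps are annotated as transcribed pseudogenes.

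Whole back skin was compared between 2 C57Bl6 mice with 1 mutant and 1 wild-type Bmal1 allele (het) and 2 mice with a germline deletion of both copies (KO). The replicates are described as littermates, without saying which mice shared a litter. Bmal1, gene symbol Arntl, encodes the partner of CLOCK in the circadian clock. All 4 mice were at postnatal day 22, with hair follicles in telogen, were kept under a light and dark cycle of equal length, and were sampled at ZT22, 22 hours after lights on. The comparison asks which skin transcripts differ when Bmal1 is lost throughout the body. The controls carry 1 mutant allele too, so every difference is KO against 1 remaining allele. Each mouse gave 1 Affymetrix whole-transcript array, and the values below are log2 signals after quantile normalization, with differences given as KO minus het.

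The number of arrays limits the precision, and because whole skin was measured, fewer cells of a type and less RNA per cell cannot be told apart. Arntl read 8.90 and 9.08 in the het arrays and 8.29 and 8.15 in the KO arrays (difference -0.76, SE 0.12, adjusted p = 0.015, limma), and its probes may lie outside the deleted part. Across tested probe sets the arrays of 1 genotype correlated at 0.982 (het) and 0.988 (KO), and arrays of different genotypes at 0.966 to 0.980, the lowest between het 2 and KO 1. Of 13 measured suprabasal keratins and contact proteins 12 passed the filter on dim signals (all but Krt2), as did all 11 measured basal keratinocyte genes. All 18 skeletal muscle genes passed too, so passing does not mark a cell type. Among the keratins, Krt10 read 13.29 to 13.46 and Krt5 12.36 to 12.98. The filter left out probe sets whose mean over the 4 arrays was at or under 6.67, the 25th percentile, and 37 of the 56 members passed it. Sprr2d, with a mean of 6.80, lay just inside and S100a5, at 6.55, just outside.

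The upstream sequences show how far members resemble each other and are given here for the genes the results turn on. They come from RefSeq (GRCm38.p6), cover bases before the annotated start and are written 5′ to 3′ on the gene's strand, with 49 of the 56 members matched by symbol, in 53 promoters. The 5 motifs searched for on both strands in the 250 bases before the start were CACGTG (E-box, the element that BMAL1 and CLOCK bind), TGANTCA (AP-1), TTNNGCAAT (C/EBP), AACCGGTT (grainyhead) and GGGNGTGG (KLF), and a sixth, the octamer ATTTGCAT, was added after the sequences had been seen. TGANTCA was found in 17 of 53 member promoters (32.1%) and in 6.75% of all 32851 promoters of the table. It was in 9 of 11 Sprr promoters, 7 of them of Sprr2 genes, and in 4 of 6 fused S100 promoters. The counts were 2 of 3 for single-gene precursors, 2 of 15 for S100 promoters and 0 of 18 for Lce promoters. Promoters of near copies, and the several promoters of 1 gene, were counted separately. CACGTG was found in 2 member promoters (3.77%), those of Lce3a and S100a11, against 6.02% of all promoters. TTNNGCAAT was in 3 member promoters, GGGNGTGG in 2 and AACCGGTT in 0, against 1.93%, 15.9% and 0.116% of all promoters. A match is a run of letters, not a shown binding site.

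The Sprr2 genes are shown together because nearly all of them were lower in the KO mean. All 7 Sprr2 promoters in the table held both TGANTCA, beginning 198 to 193 bases before the start, and ATTTGCAT, which 1.6% of all promoters hold. Sprr2k held a second TGANTCA, 182 bases before the start. Pairs of these promoters were 60.1% to 89.3% identical over 250 bases, with Sprr2d and Sprr2e the closest pair. The lines below run from base -200 to base -81 before the start, with those motifs in capitals (and a C/EBP match in Sprr2i).
Sprr2b (chr3:92316505-92316624, plus strand): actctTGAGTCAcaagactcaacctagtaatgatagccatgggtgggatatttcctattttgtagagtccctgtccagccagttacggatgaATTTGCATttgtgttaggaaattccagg
Sprr2d (chr3:92338940-92339059, plus strand): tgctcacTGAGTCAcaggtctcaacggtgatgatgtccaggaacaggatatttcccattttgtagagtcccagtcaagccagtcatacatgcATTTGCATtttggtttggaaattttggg
Sprr2e (chr3:92351943-92352062, plus strand): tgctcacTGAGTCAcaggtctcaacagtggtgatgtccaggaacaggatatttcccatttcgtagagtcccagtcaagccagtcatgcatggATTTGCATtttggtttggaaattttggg
Sprr2f (chr3:92364987-92365106, plus strand): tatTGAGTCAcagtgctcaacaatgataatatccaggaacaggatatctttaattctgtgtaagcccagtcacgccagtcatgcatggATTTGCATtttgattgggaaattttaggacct
Sprr2h (chr3:92385485-92385604, plus strand): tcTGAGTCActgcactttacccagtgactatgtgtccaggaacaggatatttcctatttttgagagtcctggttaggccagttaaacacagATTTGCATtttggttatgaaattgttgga
Sprr2i (chr3:92407791-92407910, plus strand): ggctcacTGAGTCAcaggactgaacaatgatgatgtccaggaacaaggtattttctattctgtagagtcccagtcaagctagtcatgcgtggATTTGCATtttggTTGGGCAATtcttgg
Sprr2k (chr3:92432382-92432501, plus strand): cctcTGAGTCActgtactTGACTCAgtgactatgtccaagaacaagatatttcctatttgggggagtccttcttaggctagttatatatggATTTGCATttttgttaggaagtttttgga

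Lce3a, Lce3c and Lce3e are shown because every Lce3 gene was lower in the KO mean, and to set the closest pair of the group beside a more distant member. None of the 5 Lce3 promoters and none of the 12 Lce1 promoters in the table held TGANTCA. Lce3c and Lce3e were the closest Lce3 pair, 79% identical over the 250 bases before the start, while Lce3a and Lce3e were the least alike, at 55.1%, and the median over 10 Lce3 pairs was 58.7%. The 120 bases before the start are printed, in which no searched motif occurs. The CACGTG of Lce3a begins 159 bases before the start, outside the printed part.
Lce3a (chr3:92926231-92926350, minus strand): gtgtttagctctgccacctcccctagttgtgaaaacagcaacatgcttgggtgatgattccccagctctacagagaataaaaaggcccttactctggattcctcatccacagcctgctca
Lce3c (chr3:92944366-92944485, plus strand): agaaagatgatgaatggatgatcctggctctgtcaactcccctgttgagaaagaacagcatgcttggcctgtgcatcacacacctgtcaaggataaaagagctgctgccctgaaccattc
Lce3e (chr3:92966941-92967060, plus strand): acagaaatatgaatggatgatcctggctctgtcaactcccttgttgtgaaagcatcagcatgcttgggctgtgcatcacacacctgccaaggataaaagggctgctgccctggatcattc

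Sprr4 and S100a4 are shown because they passed the test, Rptn because it had the largest difference of the fused S100 genes, and Lor, the loricrin gene, for comparison. The 250 bases before the start of Sprr4 and of S100a4 held none of the searched motifs. That of Rptn held TGANTCA 96 bases before the start, and that of Lor 48 bases before it, both in capitals.
Sprr4 (chr3:92500494-92500743, minus strand): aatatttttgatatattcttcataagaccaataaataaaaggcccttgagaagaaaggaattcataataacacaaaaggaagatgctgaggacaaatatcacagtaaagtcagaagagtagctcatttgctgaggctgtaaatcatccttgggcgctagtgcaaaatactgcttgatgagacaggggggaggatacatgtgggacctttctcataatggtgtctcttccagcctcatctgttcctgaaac
S100a4 (chr3:90603520-90603769, plus strand): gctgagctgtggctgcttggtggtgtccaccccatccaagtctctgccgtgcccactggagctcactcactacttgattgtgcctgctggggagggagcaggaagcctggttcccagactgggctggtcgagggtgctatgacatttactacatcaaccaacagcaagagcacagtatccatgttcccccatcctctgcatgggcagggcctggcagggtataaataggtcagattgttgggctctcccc
Rptn (chr3:93393449-93393698, plus strand): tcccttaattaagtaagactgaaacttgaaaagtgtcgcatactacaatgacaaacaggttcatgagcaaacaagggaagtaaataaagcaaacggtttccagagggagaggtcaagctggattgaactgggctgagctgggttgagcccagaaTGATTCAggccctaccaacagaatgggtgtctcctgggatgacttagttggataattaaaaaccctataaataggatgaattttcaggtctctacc
Lor, 120 bases (chr3:92083143-92083262, minus strand): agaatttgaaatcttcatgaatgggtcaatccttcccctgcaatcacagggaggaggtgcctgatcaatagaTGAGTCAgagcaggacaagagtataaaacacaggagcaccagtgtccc

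Members of the complex differed in both directions. The median difference over all 56 members was -0.08, beside -0.01 over all 19938 genes, with 22 members higher and 34 lower in the KO mean. Both KO arrays lay above both het arrays for 8 members (14.3%), where 23.4% of all genes did so, and below them for 13 (23.2%), where 23.1% of all genes did. The groups thus did not overlap for 21 members, against 46.5% of all genes. The largest gap between arrays of 1 genotype exceeded the difference between genotypes for 44 of the 56 members (78.6%), and for 66.8% of all genes. With limma over 16341 probe sets, 2 of the 37 tested members passed an adjusted p of 0.05, against a background of 1.98%. An unadjusted p under 0.05 was found for 5 of the 37 (13.5%), against 17.9% of all tested probe sets; 2 of these members were higher in KO, against a background of 11.6%, and 3 lower, against 6.38%. The members that passed were Sprr4, which rose, and S100a4, which fell. An exact permutation test of 1 gene between 2 and 2 arrays cannot reach 0.05, so these calls lean on the spread that limma shares across probe sets. When probe sets of several genes were kept in the test, 0 members and 0 of 17557 probe sets passed the adjusted threshold, with 2713 at an unadjusted p under 0.05.

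**Figure D1:**
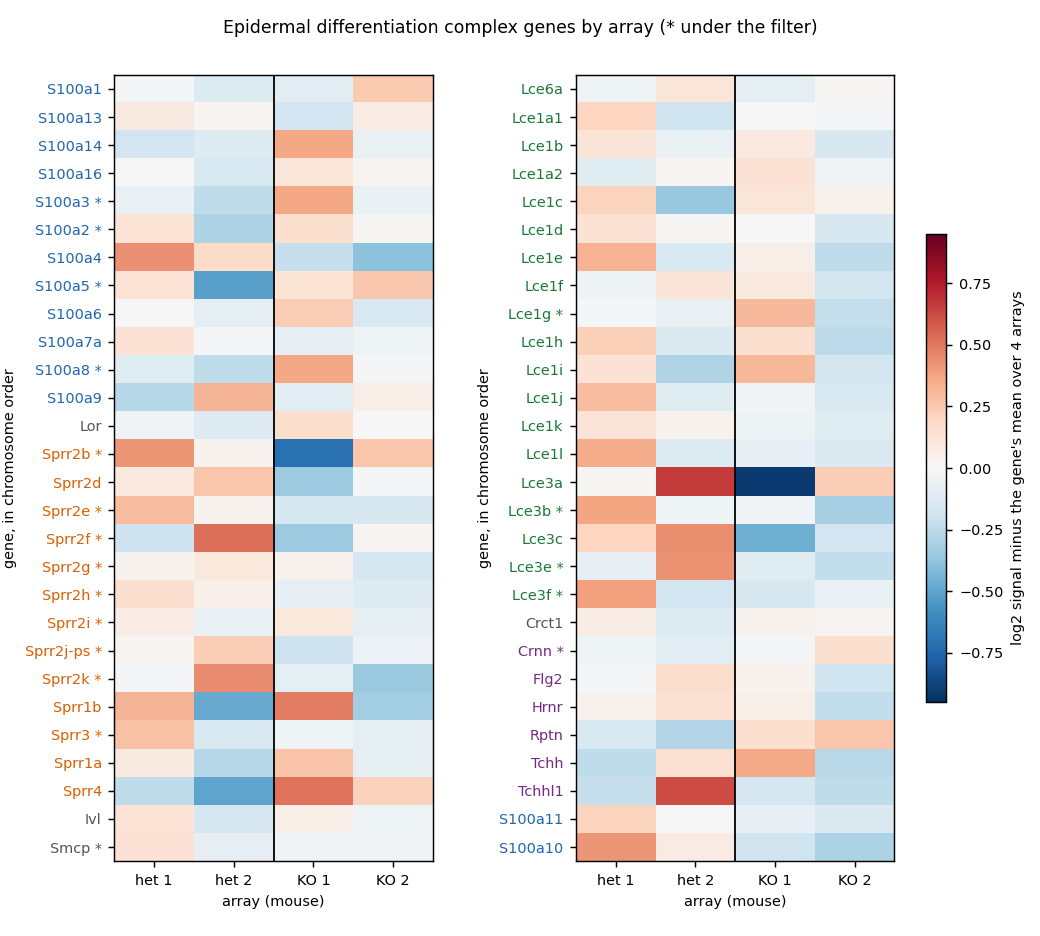
Signal of each of the 56 genes in each of the 4 arrays, as the log2 value minus the gene's mean over the arrays (red above, blue below), in chromosome order. Name colours mark families (green Lce, orange Sprr, blue S100, purple fused S100, grey single-gene precursors) and an asterisk a gene under the filter. The vertical line parts het from KO, and few rows are 1 colour on each side of it: 8 genes are higher and 13 lower in both KO arrays.

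The single-gene precursors hardly differed. Loricrin (Lor), the glycine-rich main protein of the envelope, read 12.46 and 12.37 in the het arrays and 12.66 and 12.49 in the KO arrays. Both KO values were above both het values, by a difference of 0.16 (SE 0.12, adjusted p = 0.51), which did not pass. Involucrin (Ivl), an early scaffold of the envelope, read 11.37 and 11.08 in het and 11.30 and 11.20 in KO. Its groups overlapped, with a difference of 0.02 (SE 0.13, adjusted p = 0.95). Crct1, a small cysteine-rich protein gene of the complex, differed by 0.06 (SE 0.12). Smcp, named for the cysteine-rich protein of sperm mitochondria, stayed under the filter, at 6.22 to 6.44 in all arrays.

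Among the Sprr genes Sprr4 rose, while the Sprr2 group, most of it under the filter, had a negative median and no call. Sprr4, a cornified envelope precursor whose human counterpart is induced by ultraviolet light, read 11.29 and 11.03 in the het arrays and 12.04 and 11.75 in the KO arrays. The groups were well apart, and the difference of 0.73 (SE 0.14, 1.66-fold) passed with limma's adjusted p = 0.033. It stayed between 0.58 and 0.88 under 14 other settings. The adjusted p missed the threshold under 5 of them: it was 0.21 without KO 1, 0.073 without het 2, 0.069 with no filter, 0.052 without a trend in the variance and 0.15 when probe sets of several genes were kept in the test.

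Sprr1a and Sprr1b, envelope precursors induced in stressed epidermis, varied more within a genotype than between genotypes. Sprr1a read 12.60 and 12.24 in het and 12.78 and 12.43 in KO (difference 0.19, SE 0.16, adjusted p = 0.58). Sprr1b read 8.13 and 7.33 in het and 8.29 and 7.48 in KO (difference 0.16, SE 0.28, adjusted p = 0.82). Both genes overlapped between the groups, with het 2 the lowest array. Sprr3, typical of oral and oesophageal epithelium, was under the filter and differed by -0.13 (0.08 without het 1).

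The Sprr2 genes, envelope precursors that respond to injury and inflammation, gave low signals in resting skin: 8 of the 9 were under the filter. Their differences ran from -0.45 (Sprr2b) to 0.01 (Sprr2i), with a median of -0.32, and 8 of 9 were lower in the KO mean (with the values as deposited Sprr2i was lower too, at -0.16). Both KO arrays lay below both het arrays for 5 of the 9. That count includes Sprr2d, which passed the filter, and has to be read against dim genes in general. Of these, 26.7% had both KO arrays below and 8.91% both above. Their median was -0.10 over 5019 genes, of which 3424 were lower in the KO mean. The lean was stronger with the values as deposited, where 46.3% of dim genes had both KO arrays below (median -0.25) and the Sprr2 median was -0.49.

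Sprr2d was the member of this group that passed the filter, and it read 6.90 and 7.07 in het and 6.46 and 6.79 in KO. The groups did not overlap, and the difference of -0.36 (SE 0.17) did not pass (adjusted p = 0.30). Sprr2e, its near relative, read 6.65 and 6.39 in het and 6.19 and 6.21 in KO. Sprr2k read 5.75 and 6.21 in het and 5.68 and 5.41 in KO, again without overlap. Sprr2b owed its difference to 1 array, KO 1, at 5.29, the other 3 lying between 6.03 and 6.42; without KO 1 it differed by 0.04. A brighter probe set shared by Sprr2a1, Sprr2a2, Sprr2a3 and Sprr2b read 10.39 and 10.41 in het and 10.36 and 10.05 in KO, a difference of -0.19. The probe sets shared by Sprr2a1 and Sprr2a3 alone, also above the filter value, hardly differed. They read 8.85 and 8.63 in het and 8.83 and 8.54 in KO, with overlap and a difference of -0.06.

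**Figure D2:**
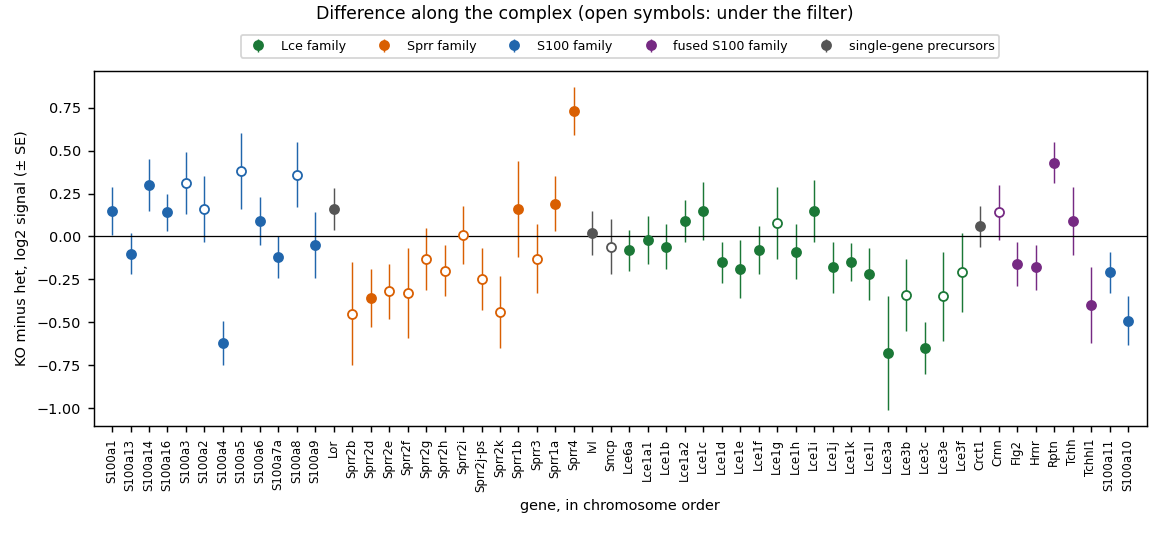
Difference between KO and het mean log2 signal for each gene in chromosome order, with limma's SE as error bar; filled symbols passed the filter, and open ones did not and carry the SE of the fit with no filter. Sprr4 stands highest at 0.73, while the neighbouring Sprr2 genes (other than Sprr2i at 0.01) and Lce3 genes lie below 0.

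The measured Lce1 genes, which form 1 run on the chromosome, and the Lce3 genes, which form another, gave different values. Lce1m, which was not analysed, lies beyond the Lce3 genes. The difference between these groups was not tested. The Lce1 genes encode the envelope proteins of normal skin, and 12 of 13 passed the filter. Their differences were small, from -0.22 (Lce1l) to 0.15 (Lce1c and Lce1i), with a median of -0.08. That median was 0.03 without het 1, -0.20 without het 2, -0.19 without KO 1 and 0.05 without KO 2, so its sign rested on single arrays. Both KO arrays lay above the het range for 0 of 13 and below it for 2 of 13 (15.4%), against 23.4% and 23.1% of all genes. For 11 of 13 (84.6%) the gap within a genotype was larger than the difference between genotypes, against 66.8% of all genes. The arrays ranked alike for most of them, with het 1 above het 2 in 11 of 13 and KO 1 above KO 2 in 13 of 13; over all genes these orders held for 12604 and 12158 of 19938.

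Lce1c, for example, read 13.17 and 12.60 in het and 13.07 and 12.99 in KO (difference 0.15, SE 0.17). Its het values enclosed both KO values, and without het 2 the difference was -0.13. Lce1l, lower by 0.22 (SE 0.15, adjusted p = 0.50), read 9.85 and 9.37 in het and 9.42 and 9.36 in KO, so that het 1 alone stood apart, and without het 1 the difference was 0.02. Lce1a1 (-0.02, SE 0.14) and Lce1b (-0.06, SE 0.13) had the smallest differences among tested Lce genes. Lce6a, a lone gene beside the Lce1 run, differed by -0.08 (SE 0.12), and by 0.02 with the values as deposited.

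The Lce3 genes, which in human skin are induced by barrier injury and in psoriasis, were all lower in the KO mean. Lce3c read 7.63 and 7.87 in het and 6.96 and 7.24 in KO. The groups were apart by more than the gap within either, and the difference was -0.65 (SE 0.15, 1.56-fold lower) with an unadjusted p of 0.0015 and limma's adjusted p = 0.059, which missed the threshold. Over the other settings its difference ran from -0.78 to -0.51, and it passed under 6 of 13. Lce3a had a like difference, -0.68, but read 7.08 and 7.73 in het and 6.16 and 7.30 in KO, so the groups overlapped (SE 0.33, adjusted p = 0.31). Without KO 1 it differed by -0.11.

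Lce3b (-0.34), Lce3e (-0.35) and Lce3f (-0.21, but 0.08 without het 1) were under the filter, where readings lean low in KO for genes in general. The probe set shared by all 6 Lce3 genes was brighter, at 9.46 and 9.46 in het and 8.91 and 9.06 in KO. Both KO arrays were below both het arrays there too, by -0.47. Because these genes are near copies, a probe designed for one may read another, and the shared probe set is no independent measurement.

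**Figure D3:**
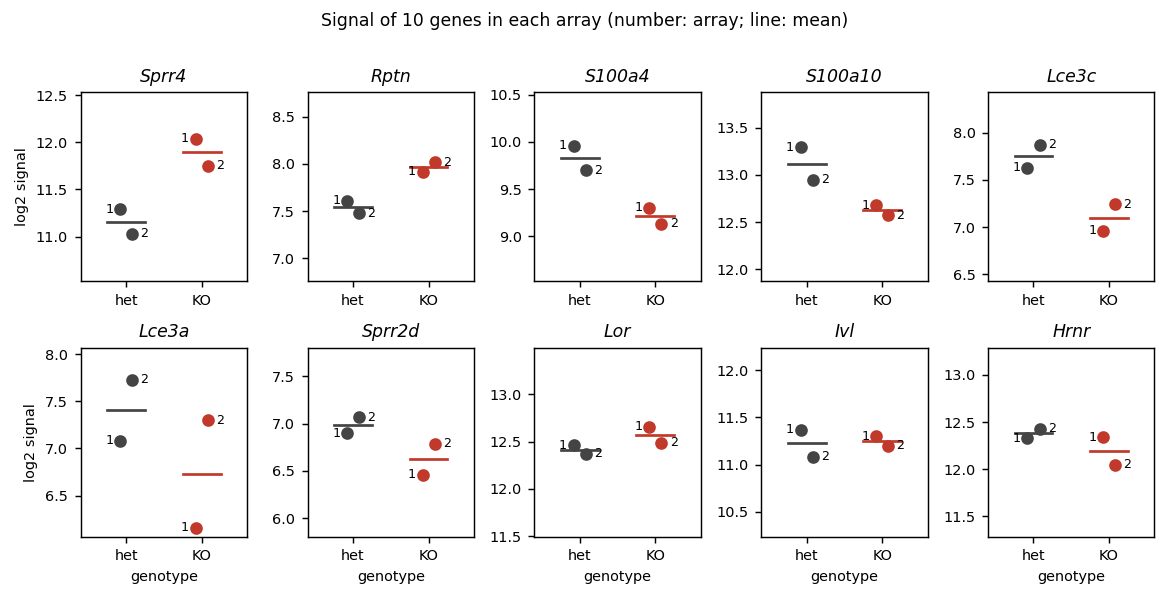
Log2 signal of 10 genes in the 4 arrays, het in grey and KO in red, each point numbered by its array, with the genotype mean as a line; every panel spans 2 log2 units. Sprr4 and Rptn lie higher in both KO arrays and S100a4, S100a10, Lce3c and Sprr2d lower, Lor slightly higher, while Lce3a, Ivl and Hrnr overlap.

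Of the fused S100 genes, Rptn differed most. Repetin (Rptn), an envelope precursor of the granular layer and hair follicle, read 7.61 and 7.48 in het and 7.92 and 8.02 in KO. Both KO arrays were higher, by 0.43 (SE 0.12, 1.34-fold) with an unadjusted p of 0.0055; limma's adjusted p = 0.10 missed the threshold. The difference lay between 0.36 and 0.49 under the other settings, and 1 of the 13 that tested it gave a call (adjusted p = 0.041 with the replicate block).

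The filaggrin-like genes of this family had small differences of the opposite sign, which did not pass. Hornerin (Hrnr) read 12.33 and 12.43 in het and 12.34 and 12.05 in KO (difference -0.18, SE 0.13, adjusted p = 0.51), with overlap. Filaggrin 2 (Flg2) read 11.98 and 12.16 in het and 12.02 and 11.80 in KO (-0.16, SE 0.13, adjusted p = 0.56). In both genes KO 2 was the lowest array.

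Trichohyalin (Tchh) hardens the inner root sheath and medulla of the hair, and read 7.57 and 7.96 in het and 8.17 and 7.55 in KO (difference 0.09, SE 0.20). The arrays of each genotype differed by more than the genotypes. Tchhl1 differed by -0.40 (SE 0.22, adjusted p = 0.38), which rested on het 2: it read 8.66 there and 7.80 to 7.88 in the other 3 arrays. Without het 2 its difference was 0.02. Cornulin (Crnn), mainly of oesophageal epithelium, was under the filter at 6.26 to 6.51. A list of genes of the growing hair follicle, to which Tchh and S100a3 belong, had a median difference of 0.11 over 20 measured genes. Of the 16 tested, 3 were higher and 2 lower at an unadjusted p under 0.05. That is 31.2% of them, where the share over every probe set in the fit was 17.9%. Krt72, an inner root sheath keratin named after its values were seen, rose by 0.70 (SE 0.15, limma's adjusted p = 0.050 after rounding, just under the threshold). It was the 1 adjusted call of the list (6.25% of tested genes, against 1.98% of all tested probe sets). That call was lost when probe sets of several genes were kept, where 0 probe sets passed. The part of the follicle in the Tchh values was not tested.

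The S100 genes differed both ways, with 4 of 14 above and 4 of 14 below the het range in both KO arrays (28.6% each, near the 23.4% and 23.1% of all genes) and a median of 0.11. S100a4, a calcium-binding protein of fibroblasts, macrophages and other migrating cells, fell: it read 9.96 and 9.70 in het and 9.30 and 9.13 in KO. The difference was -0.62 (SE 0.13, 1.53-fold lower), with limma's adjusted p = 0.043. Under 14 other settings it ran from -0.75 to -0.47. The call was lost under 8 of them: adjusted p was 0.074 without het 1, 0.10 without KO 1, 0.15 without KO 2, 0.074 with the values as deposited, 0.091 after median centring, 0.072 with no filter, 0.065 without a trend and 0.16 with probe sets of several genes kept.

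S100a4 is also made by cells other than keratinocytes, and markers of macrophages and fibroblasts were measured in the same arrays. Macrophage genes had a median difference of -0.10 over 14 measured genes, 11 of which were lower in KO. Their summed linear signal was 8051 to 9645 in het and 7516 to 8176 in KO. Fibroblast genes had a median of 0.00 over 11, with sums of 40575 to 47770 in het and 42411 to 44444 in KO. Among single markers, Cd68 differed by -0.65 (SE 0.16, adjusted p = 0.073), Fn1 by -0.51 (SE 0.13, adjusted p = 0.083), and Postn by 0.57 (SE 0.13, adjusted p = 0.056); they were named after their values were seen. Aif1 was the one marker under the filter. Their part in the S100a4 result was not tested.

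S100a10, the partner of annexin A2 at the plasma membrane, and S100a11, which is crosslinked into the envelope, are neighbours at the far end of the complex, and both read lower. S100a10 read 13.29 and 12.95 in het and 12.68 and 12.57 in KO. The groups did not overlap, and the difference of -0.49 (SE 0.14, unadjusted p = 0.0055) missed the threshold with limma's adjusted p = 0.10. S100a11 read 13.13 and 12.91 in het and 12.84 and 12.78 in KO, a difference of -0.21 (SE 0.12, adjusted p = 0.40). A second S100a11 probe set differed by -0.24.

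At the other end of the complex, where S100a4 also lies, the remaining S100 genes differed in both directions and none passed. S100a14, an epithelial S100 protein, read 9.57 and 9.63 in het and 10.12 and 9.68 in KO (difference 0.30, SE 0.15, adjusted p = 0.32). KO 1 carried most of that difference, which was 0.08 without it. S100a16 differed by 0.14 (SE 0.11) and S100a6, or calcyclin, by 0.09 (SE 0.14). S100a13 differed by -0.10 (SE 0.12), but by 0.01 with the values as deposited and 0.05 after median centring. S100a1, a muscle S100 protein, differed by 0.15 (SE 0.14; -0.03 without KO 2), while skeletal muscle genes had a median of 0.44 over 18 genes and summed signals of 73006 to 74917 in het and 94071 to 111484 in KO; their part in it was not tested.

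S100a8 and S100a9, the subunits of calprotectin made by neutrophils and by inflamed epidermis, gave low signals. S100a8 read 5.85 and 5.72 in het and 6.33 and 5.95 in KO, all under the filter and so untested. Both KO arrays lay above both het arrays, by 0.36, where 8.91% of all genes under the filter did so. S100a9 read 6.79 and 7.38 in het and 6.95 and 7.12 in KO (difference -0.05, SE 0.19), with overlap. Of 15 measured neutrophil genes 5 passed the filter, and Ly6g, Ngp, Cxcr2 and Ltf were under it. The summed signal of the neutrophil genes was 2653 to 2804 in het and 2546 to 2612 in KO. Il1r2, the brightest, weighs most in that sum, and read 10.33 and 10.31 in het and 9.94 and 10.20 in KO. Mmp9 was higher in both KO arrays, by 0.46 (SE 0.16, limma's adjusted p = 0.18). Both were named after their values were seen. Of the 15 genes, 5 were higher and 10 lower in the KO mean, with a median of -0.03. S100a7a, a relative of psoriasin, differed by -0.12 (SE 0.12), and the dim S100a2, S100a3 and S100a5 by 0.16, 0.31 and 0.38 (S100a2 by -0.01 as deposited).

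Genes outside the complex that build, process or switch on the envelope gave no adjusted call in the lists of assembly, filaggrin processing, suprabasal proteins and transcription factors. Of 18 genes of envelope crosslinking and assembly, all tested, 0 passed limma's adjusted threshold, against 1.98% of all tested probe sets. An unadjusted p under 0.05 was found for 2 (11.1%), against 17.9% of all tested probe sets. The median was -0.01 (0.04 after median centring). Cornifelin (Cnfn), an envelope component, was lower by 0.41 (SE 0.12, unadjusted p = 0.0069, adjusted p = 0.11), and Tgm5, a transglutaminase of the upper epidermis, was higher by 0.30 (SE 0.13, adjusted p = 0.25). Cstb, a cysteine protease inhibitor, differed by 0.25, Cst6, another, by 0.16, Csta1, a cystatin A gene, by -0.27, and Lypd3 by -0.23. The main crosslinking enzymes Tgm1 (-0.03, SE 0.12) and Tgm3 (0.02, SE 0.13) did not pass; these were named after their values were seen.

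Filaggrin-processing genes had a median of 0.15 over 14, with 10 higher and 4 lower. Both KO arrays lay above the het range for 8 of 14 (57.1%), against 23.4% of all genes, and below it for 3, against 23.1%. With limma, 0 of 13 tested passed (2 with an unadjusted p under 0.05). Serpinb12 differed by 0.51 (SE 0.17, adjusted p = 0.15). The largest difference of the list was that of Padi4, a peptidylarginine deiminase under the filter and so untested, which read 6.30 and 5.70 in het and 7.12 and 6.57 in KO (0.85); it was named after its values were seen. The proteases Asprv1 and Casp14, which cut profilaggrin and its products, each differed by 0.23 (SE 0.12). Klk5, a kallikrein of the stratum corneum, differed by -0.27 (SE 0.12, adjusted p = 0.26), Blmh, which completes filaggrin breakdown, by -0.19 and Padi1 by -0.15.

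Suprabasal keratins and contact proteins had a median of 0.00 over 13, and 0 of 12 tested passed (0 with an unadjusted p under 0.05). Their largest differences were 0.20 (Cldn4) and -0.14 (Krt80). Transcription factors of differentiation had a median of -0.02 over 20, with 0 passing and 1 with an unadjusted p under 0.05. That gene was Klf4, which is needed for the skin barrier, at -0.27 (SE 0.12, adjusted p = 0.26). Tfap2a (0.24), Prdm1 (0.20), Cebpb (0.20), Gata3 (-0.18) and Nfe2l2 (-0.12) did not pass.

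Stress keratins, which injured or hyperproliferating epidermis and parts of the follicle make, were the keratinocyte list with the largest median, 0.49 over 4 genes (0.30 without KO 1 and 0.69 without KO 2). Krt6a read 8.46 and 8.37 in het and 9.37 and 9.15 in KO, and rose by 0.84 (SE 0.12, adjusted p = 0.012, limma). That call was lost without KO 1 (adjusted p = 0.074) and with probe sets of several genes kept (0.095). Krt16 (0.58, SE 0.16, adjusted p = 0.10) and Krt6b (0.41, SE 0.16, adjusted p = 0.21) did not pass. Krt17, the brightest of the 4 and named to complete the list, read 12.07 and 11.58 in het and 12.31 and 12.05 in KO. Its groups overlapped, and the difference of 0.35 (SE 0.17, limma's adjusted p = 0.30) did not pass. In the same arrays the injury-responsive Sprr2 and Lce3 genes had medians of -0.32 and -0.35. Of these, 8 of 9 Sprr2 and 3 of 5 Lce3 genes were under the filter, where the median over all genes was -0.10. Sprr1a and Sprr1b, also induced in stressed epidermis, differed by 0.19 and 0.16, with overlap. S100a8 and S100a9, made by inflamed epidermis too, differed by 0.36 (under the filter) and -0.05. Basal keratinocyte genes had a median of -0.06 over 11. No test compared these lists with each other.

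**Figure D4:**
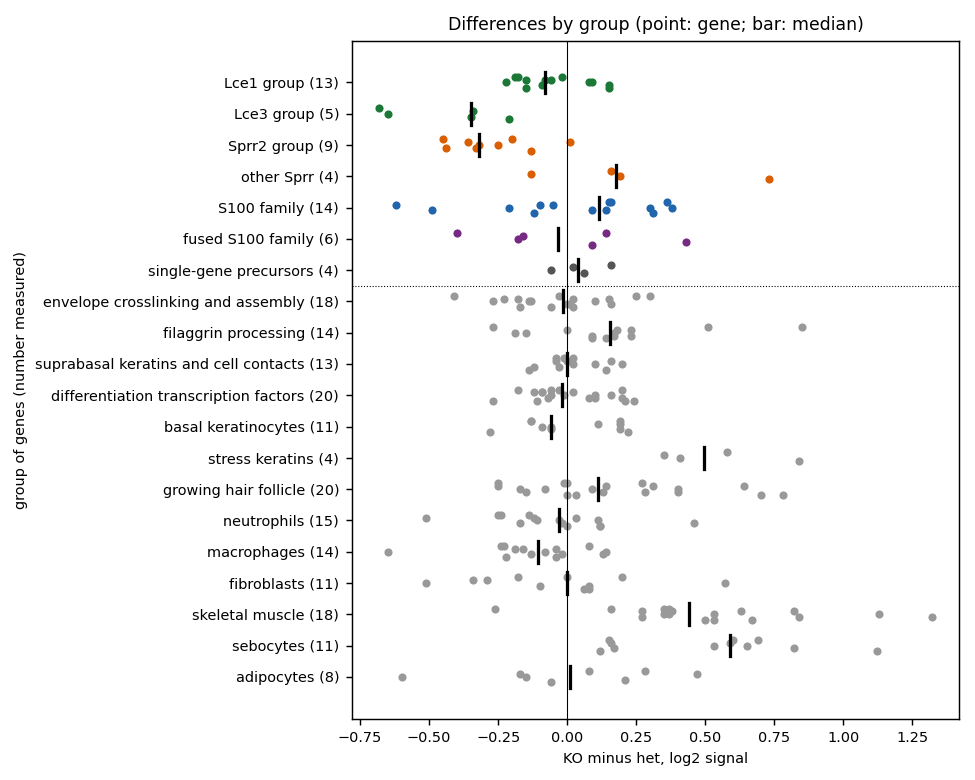
Difference between KO and het mean log2 signal for each measured gene (points) in the groups of the complex (coloured, above the dotted line) and in other gene lists (grey), with the number of genes in brackets and the median as a bar. Lce3 and Sprr2 genes centre on -0.35 and -0.32, stress keratins on 0.49, skeletal muscle on 0.44 and sebocyte genes on 0.59, while the Lce1 genes and the other keratinocyte lists have medians from -0.08 to 0.15.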

How the data were processed

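Total RNA of 4 mice was hybridised to 1 Affymetrix whole-transcript array each. Per the submitters' processing notes, the authors worked with PLIER 2.0 and Affymetrix Expression Console 1.1.1. The deposited table spans 2.54 to 14.9, so its values were read as log2; no header names the log base, and how arrays were scaled against each other is not stated. Deposited medians were 7.46 and 7.54 (het) and 7.45 and 7.47 (KO). Quartiles differed by up to 0.34, so the arrays were quantile normalized. Such scaling can move dim genes together, and a signal near background compresses differences.

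Of 35557 probe sets the annotation gave 21789 a single gene, left 12147 unnamed and assigned 1621 to several genes. Through the gene identifier (GRCm38.p6), 21698 symbols were updated or kept. Per gene the probe set with the highest mean was reported. The 16341 probe sets paired with 1 gene and above the filter were tested in R 4.3.3 by limma 3.58.1, using lmFit and a trended eBayes, Benjamini-Hochberg adjustment and 2 residual degrees of freedom. The fit was tested on simulated data. SEs are moderated. Members without a test carry values only. P-values set each difference against the spread between these mice, as moderated by the spread that limma shares across probe sets. Near-identical genes (Lce, Sprr2) may share probes.

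Members, gene lists and tests were chosen with earlier results of these data known. Named are Lor, Ivl, Flg2, Hrnr, Rptn, Tchh, S100a8, S100a9, members with an unadjusted p under 0.05, in each family the 3 largest and 2 smallest differences among tested members, and in each keratinocyte list the up to 3 tested genes of smallest p in each direction; other members are named to account for them. Other settings changed the normalization, filter, offset, variance prior, probe set choice, replicate block and arrays used. Of these 14, the one keeping probe sets of several genes in the test was chosen after seeing the data.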

Additional observations from a re-analysis of the deposited data

How the results depend on the processing

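The number of probe sets past the adjusted threshold depended on the setting. It was 323 in the fit reported, 145 with no filter, 544 with the values as deposited, 913 after median centring, 1235 with the replicate block, 77 to 986 with 1 array left out (77 without KO 1, 986 without het 1), and 0 of 17557 when probe sets of several genes were kept (2713 of them at an unadjusted p under 0.05). Of the 323, 241 were higher in KO, against 459 of 544 as deposited and 780 of 913 after median centring. Members past it numbered 2, but 0 with no filter, 0 with no trend, 0 with several-gene probe sets, 6 with the replicate block and 0 to 3 with 1 array left out (0 without KO 1). The replicate numbers are shared between genotypes, but no label says that a number marks a litter, so they are not taken as pairs.

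Members at an unadjusted p under 0.05 numbered 5, but 8 once arrays were centred on their medians, 3 under a 50th-percentile filter, 9 with the replicate block and 5 to 10 with 1 array left out. Members above the het range numbered 10 to 21 and below it 18 to 28 with 1 array left out, where 3 arrays overlap less often by construction.

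Adjusted p of S100a4 was 0.074 as deposited, 0.091 after median centring, 0.072 with no filter, 0.065 with no trend, 0.16 with several-gene probe sets and 0.028 to 0.15 with 1 array left out. That of Sprr4 was 0.069, 0.052 and 0.15 with no filter, no trend and several-gene probe sets, and 0.012 to 0.21 with 1 array left out. That of Krt6a was 0.095 with several-gene probe sets and 0.0072 to 0.074 with 1 array left out.

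As deposited and after median centring, medians were -0.37 and -0.33 (Sprr), -0.52 and -0.48 (Lce3), -0.49 and -0.45 (Sprr2), 0.23 and 0.27 (filaggrin processing), 0.09 and 0.12 (transcription factors) and -0.19 and -0.16 (neutrophils). After median centring those of envelope assembly and basal keratinocytes were 0.04 and 0.08. With an offset of 16 those of Sprr and Sprr2 were -0.17 and -0.26. The cause was not tested.

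With 1 array left out, medians ran from -0.22 to 0.03 (Lce, positive without het 1), -0.20 to 0.05 (Lce1), 0.05 to 0.17 (S100), 0.30 to 0.69 (stress keratins), -0.60 to -0.29 (Lce3), -0.21 to -0.17 (Sprr), -0.32 to -0.20 (Sprr2), -0.24 to 0.07 (fused S100), -0.08 to 0.16 (single-gene precursors, negative without het 2), -0.08 to -0.02 (envelope assembly), 0.04 to 0.21 (filaggrin processing), -0.12 to 0.10 (suprabasal), -0.08 to 0.09 (transcription factors), -0.14 to 0.15 (basal keratinocytes), -0.03 to 0.33 (growing follicle), -0.17 to 0.04 (neutrophils), -0.23 to -0.03 (macrophages), 0.33 to 0.60 (muscle), 0.33 to 0.80 (sebocytes) and -0.23 to 0.25 (adipocytes).

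Signs turned for genes near 0. As deposited and after median centring, Lce1b was 0.02 and 0.06 and Dsg1b 0.07 and 0.10; after median centring Lce1a1 was 0.02 and Nfe2l2 0.02. With 1 array left out, 26 of the 56 members took both signs; among the genes named by rule, ranges crossed 0 for Ivl (-0.12 to 0.16), Crct1 (-0.04 to 0.15), Tchh (-0.22 to 0.41), Tchhl1 (-0.82 to 0.02), S100a6 (-0.11 to 0.28), S100a9 (-0.34 to 0.25), Lce1a1 (-0.22 to 0.18), Lce1b (-0.18 to 0.06), Lce1l (-0.46 to 0.02), Sprr1b (-0.25 to 0.57), Krt77 (-0.04 to 0.24), Krt80 (-0.30 to 0.01) and Dsg1b (-0.12 to 0.05). Averaging both S100a11 probe sets left the S100 median at 0.11. Dim signals limit what can be said of the 19 members under the filter.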
